A study of Mus musculus with 46 samples.

Results

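The proteasome is assembled from a fixed set of subunits, and the 34 genes described here encode the constitutive ones. They were chosen by a rule on gene names and levels, with earlier results of these data known. The rule takes protein-coding genes with symbols Psma, Psmb, Psmc or Psmd followed by the subunit numbers of the constitutive particle. Their mean level over all 46 libraries had to be at least 1 CPM (an estimated count scaled to library size). All 34 genes that matched the symbols passed that level, out of 24671 genes in the deposited table. Of the 34, 14 encode the core particle (7 Psma and 7 Psmb genes) and 20 encode the regulatory particle or its assembly chaperones (6 Psmc and 14 Psmd genes). The libraries are polyA-selected RNA of mouse bone-marrow-derived macrophages, which are macrophages grown from marrow precursors in culture. There were 6 libraries of vehicle-treated cells and 5 libraries of each of 8 treatments. The treatments act on liver X receptors (LXR), which sense oxysterols, or on oestrogen receptors (ER). LXR was activated by 27-hydroxycholesterol (27HC), an oxysterol that also binds ER, or by the synthetic ligand GW3965, and was blocked by GSK2033. ER was activated by its natural ligand estradiol (E2) or blocked by ICI. In 3 groups treatments were combined: 27HC was given with ICI, 27HC was given with GSK2033, and GW3965 was joined by another compound, called 27HC in the titles and ICI in the treatment labels. That last group is called the GW3965 combination here and its other compound is not named. Strain, age, dose and time of exposure were not given in the labels used here, and nothing in the labels tells whether replicate libraries stem from different mice or dishes, so p-values measure the spread between these libraries, which may be technical.

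The core particle is a barrel of stacked rings. The outer rings, made of Psma subunits, gate the entry of substrates, and the inner rings, made of Psmb subunits, hold the proteolytic sites: Psmb5 carries the chymotrypsin-like, Psmb6 the caspase-like and Psmb7 the trypsin-like activity. The regulatory particle caps the barrel. Its base holds a ring of ATPases, the Psmc subunits, which unfold substrates, and the scaffold subunits Psmd1 and Psmd2; its lid holds most other Psmd subunits, including Psmd14, the deubiquitinase that removes ubiquitin chains. Psmd5, Psmd9 and Psmd10 are chaperones of base assembly and are not part of the finished particle. In immune cells, interferon replaces the 3 catalytic subunits by Psmb8, Psmb9 and Psmb10, which makes the immunoproteasome used in antigen processing. When proteasome activity is low, the transcription factor NRF1, encoded by Nfe2l1, is known to raise all subunit genes together through antioxidant response elements in their promoters.

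Promoter sequence was taken from RefSeq (GRCm38.p6) as 250 bases before and 50 bases after the start of each gene, which was at hand for 28 of the 34 members and 27025 genes in all. A core of the antioxidant response element, TGANNNNGC on either strand, was present in 16 of 28 member windows (57.1%), against 45.1% of all genes. It was present in 8 of 11 core-particle windows and 8 of 17 regulatory-particle windows. CCAAT, the box bound by NF-Y, was present in 11 of 28 (39.3%, against 41.1% of all genes). GGGCGG, the GC box bound by Sp1 family factors, was present in 18 of 28 (64.3%, against 38.2%), in 5 of 11 core-particle and 13 of 17 regulatory-particle windows. CCGGAAG, the core bound by ETS factors, was present in 10 of 28 (35.7%, against 9.93%), of which 1 was in a core-particle and 9 in regulatory-particle windows. Every motif was searched on both strands, these shares are descriptions, and a match is not a known binding site. The 250 bases before the start are printed for the 4 members whose levels spanned the widest range across the groups, Psmb5, Psmb6, Psmd8 and Psmd10, in the direction of transcription, with matches to any of the 4 motifs in capitals. The positions are chr14:54617996-54618245 on the minus strand for Psmb5, chr11:70525107-70525356 on the plus strand for Psmb6, chr7:29180674-29180923 on the minus strand for Psmd8 and chrX:140956712-140956961 on the minus strand for Psmd10.
Psmb5: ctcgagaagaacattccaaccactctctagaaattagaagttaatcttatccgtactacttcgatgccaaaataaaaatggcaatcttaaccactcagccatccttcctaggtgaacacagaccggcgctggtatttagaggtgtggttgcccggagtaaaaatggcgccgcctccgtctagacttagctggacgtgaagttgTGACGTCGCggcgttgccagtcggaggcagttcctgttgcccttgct
Psmb6: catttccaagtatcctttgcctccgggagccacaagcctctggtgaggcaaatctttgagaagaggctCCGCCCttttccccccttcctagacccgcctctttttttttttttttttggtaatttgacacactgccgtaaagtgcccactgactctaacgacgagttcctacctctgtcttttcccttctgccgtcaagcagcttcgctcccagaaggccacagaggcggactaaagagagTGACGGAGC
Psmd8: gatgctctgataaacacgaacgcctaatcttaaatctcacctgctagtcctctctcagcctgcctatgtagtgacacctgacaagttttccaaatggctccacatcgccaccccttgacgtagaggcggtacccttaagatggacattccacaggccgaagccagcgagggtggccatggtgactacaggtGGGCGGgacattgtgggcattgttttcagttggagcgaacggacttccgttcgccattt
Psmd10: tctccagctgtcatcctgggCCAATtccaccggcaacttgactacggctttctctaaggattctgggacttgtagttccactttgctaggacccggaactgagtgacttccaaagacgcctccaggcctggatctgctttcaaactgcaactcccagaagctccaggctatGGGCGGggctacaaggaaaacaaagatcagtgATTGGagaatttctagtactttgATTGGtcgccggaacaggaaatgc
Psmb5 and Psmb6 each hold 1 TGANNNNGC close to the start, in the stretches TGACGTCGC and TGACGGAGC. The Psmd8 match lies in the 50 bases after its start, which are not printed. The Psmd10 window holds no TGANNNNGC and 3 copies of CCAAT, 2 of them read on the other strand as ATTGG.

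Library totals ranged from 19354093 to 30921038 estimated counts, and 13838 genes were tested. The 8 macrophage markers were all detected. Their summed level was 20883 to 22816 CPM in Vehicle, 21952 to 23512 in E2, 16565 to 17695 in GSK2033, 14823 to 16162 in 27HC, 14593 to 15282 in ICI, 12955 to 14460 in GSK2033 with 27HC, 10935 to 11489 in GW3965, 10513 to 11208 in ICI with 27HC and 9186 to 9765 in the GW3965 combination. The 6 stromal markers, led by collagen genes, summed to 4273 to 5046 CPM in Vehicle, 3710 to 4524 in GSK2033, 3622 to 3948 in GSK2033 with 27HC, 3370 to 3814 in 27HC and 2759 to 3155 in ICI with 27HC. They summed to 4403 to 4956 CPM in E2, 3587 to 4231 in ICI, 3241 to 3880 in GW3965 and 2719 to 3299 in the GW3965 combination. Neutrophil, lymphocyte, dendritic, mast-cell and erythroid markers summed to at most 2.96 CPM in any library. Macrophage sums were below Vehicle in every group but E2, and the stromal sum of GSK2033 overlapped Vehicle while that of GSK2033 with 27HC lay below it. Single macrophage markers did not all follow their sum. Their log2 fold changes over Vehicle ran from -1.11 to 0.36 with ICI and from -2.34 to 0.81 with GW3965. They ran from -3.57 to 0.81 in the GW3965 combination, -1.10 to 0.25 with 27HC, -0.70 to 0.24 with GSK2033 and -1.75 to 0.39 with ICI and 27HC. The part of these markers in the results was not tested. In bulk RNA, fewer cells of a type and less RNA per cell cannot be told apart.

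The proteasome genes moved least with E2 and most uniformly with GSK2033. A gene is called here when its p from the quasi-likelihood test of edgeR, adjusted by Benjamini and Hochberg's method across the 13838 genes, was under 0.05. A test of any difference among the 9 groups called 31 of the 34 members, against 75.3% of all genes. The other 3 were Psma3, Psmc1 and Psmd9, with adjusted p of 0.0759, 0.141 and 0.243. Against Vehicle, 24 members were called only higher over the 8 treatments, 7 were called higher in some and lower in others, and 1, the ATPase Psmc3, was called only lower. Psmc1 and Psmd9 were called in none. Psmb5, Psmb6, Psmc4, Psmd1 and Psmd8 were called higher in 7 of 8 treatments, in all but E2. Shares of all genes with such patterns over the 8 treatments were not computed. These counts are therefore descriptions of the members only, and the treatments share the same Vehicle libraries.

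**Figure D1:**
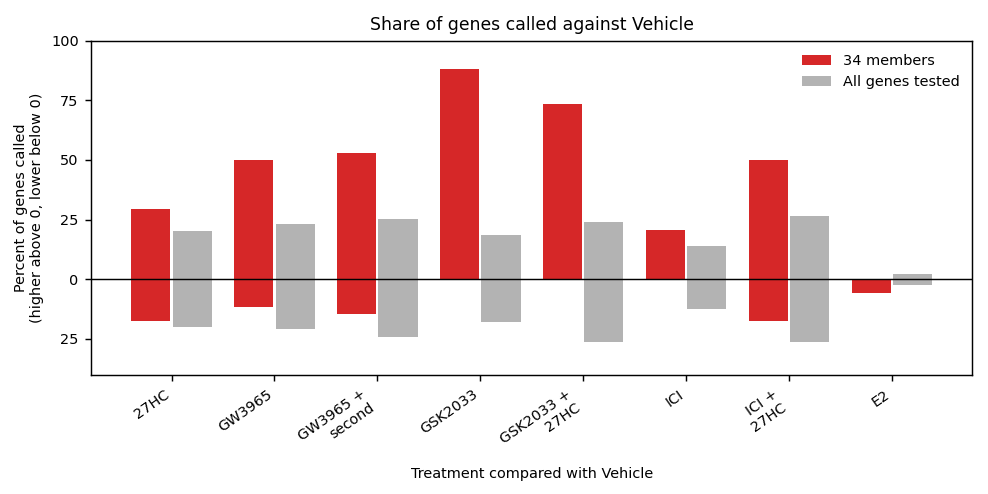
Share of the 34 proteasome genes (red) and of all 13838 genes tested (grey) called higher (above 0) or lower (below 0) than Vehicle, in percent, for each of the 8 treatments. GSK2033 and GSK2033 with 27HC have 30 and 25 members called higher and none lower, while the grey bars are of like height above and below 0.

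GSK2033 alone raised 30 of the 34 proteasome genes above Vehicle and lowered none, where 18.4% of all genes were called higher and 17.9% lower. The changes were small, with log2 fold changes from 0.07 to 0.50 and a median of 0.22. All 7 Psma genes (median 0.19), all 7 Psmb genes (median 0.32), 3 of 6 Psmc ATPase genes (median 0.14) and 13 of 14 Psmd genes (median 0.22) rose. In 27 of the 30 no GSK2033 library overlapped a Vehicle library, against 11.5% of all genes called higher without overlap. The core genes Psmb5 and Psmb6 rose by 0.50 ± 0.04 each (SE, adjusted p = 2.50e-14 and 2.69e-14), 1.42-fold and 1.41-fold. They were followed by the assembly chaperone Psmd10 at 0.46 ± 0.04 (1.37-fold), the lid subunit Psmd8 at 0.38 ± 0.03 (1.30-fold), the core subunit Psmb4 and the deubiquitinase Psmd14 at 0.33 each. The 4 members not called were the ATPases Psmc1 (0.08), Psmc3 (0.07) and Psmc6 (0.11) and the chaperone Psmd9 (0.07). The count of lower members was 0 by edgeR, 0 by DESeq2 and 0 at an unadjusted p under 0.05. Leaving out 1 library at a time gave 29 to 31 members higher. Of the core genes, Psma1 (0.10) was not called without any 1 of Vehicle replicates 2, 5 and 6 or GSK2033 replicates 2 and 3.

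**Figure D2:**
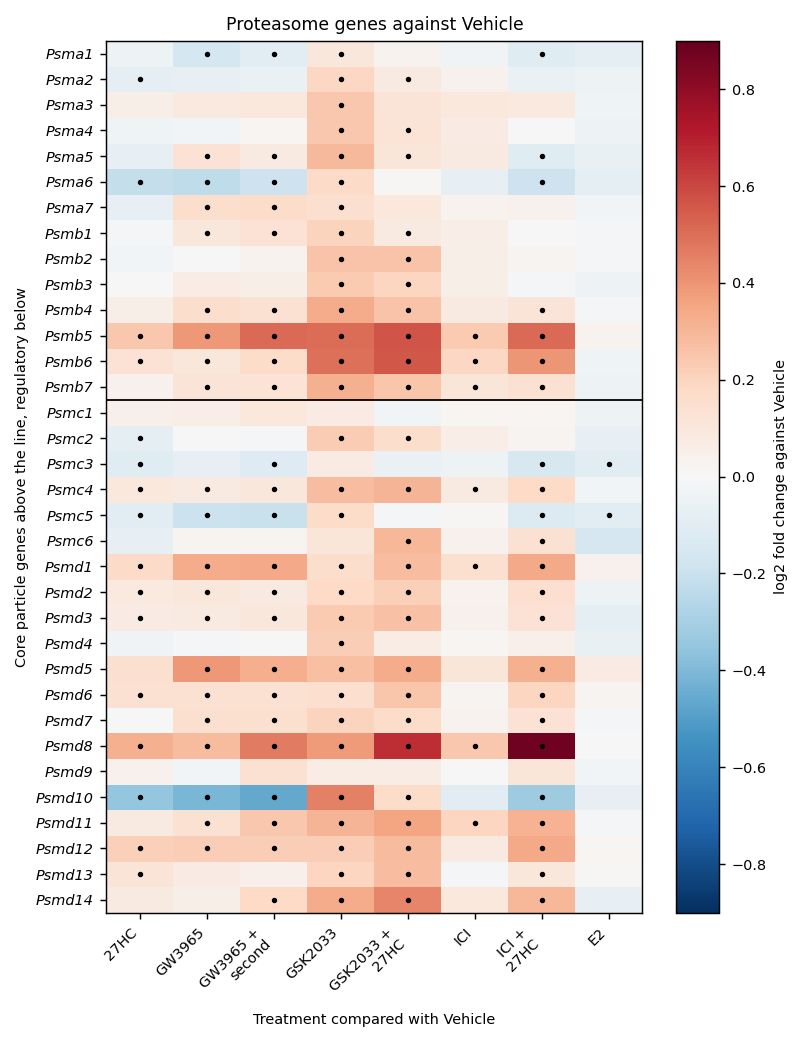
Fitted log2 fold change over Vehicle of the 34 proteasome genes in 8 treatments, red for higher and blue for lower, with core-particle genes above the line and regulatory-particle genes below it, and a dot where the adjusted p is under 0.05. The GSK2033 column is red throughout, E2 is pale, and Psmd10 is red in both GSK2033 columns and blue where 27HC or GW3965 was given without GSK2033.

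The LXR agonists moved the proteasome genes in both directions. With 27HC, 10 members rose and 6 fell (20.3% and 20.0% of all genes), with a median log2 fold change of 0.04, and 7 of the 16 did not overlap Vehicle (25.1% of all genes). Psmd8 rose by 0.32 ± 0.03, Psmb5 by 0.24 ± 0.04, the lid subunit Psmd12 by 0.22 and the base scaffold Psmd1 by 0.17. Psmd10 fell by 0.35 (adjusted p = 4.01e-09), the gate-ring subunit Psma6 fell by 0.22, Psmc3 fell by 0.11 and Psmc5 fell by 0.10. Of the 14 core genes 2 rose and 2 fell, and of the 20 regulatory genes 8 rose and 4 fell. The shares of members higher and lower were near those of all genes.

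GW3965 raised 17 members and lowered 4 (23.1% and 21.1% of all genes), with a median of 0.08. Of these 21, 13 did not overlap Vehicle (29.2% of all genes). The base chaperone Psmd5 rose by 0.39 ± 0.06, Psmb5 by 0.39 ± 0.04 (adjusted p = 2.33e-11), Psmd1 by 0.34 ± 0.03 and Psmd8 by 0.29. The 4 that fell were Psmd10 (-0.41 ± 0.04, adjusted p = 4.99e-11), Psma6 (-0.23), Psmc5 (-0.19) and Psma1 (-0.16). Psmb6 stood at 0.10 (adjusted p = 0.0415), a call that was lost without any 1 of Vehicle replicates 1, 2, 4 and 6 or GW3965 replicates 1, 2, 3 and 5. Compared directly, 2 members were higher with 27HC than with GW3965, against 12.8% of all genes, and 7 were lower, against 12.5%. Psmd5 (-0.25 ± 0.06), Psma7 (-0.23), Psma5 (-0.21 ± 0.03), Psmd1 (-0.17), Psmb5 (-0.15 ± 0.04) and Psmd7 (-0.14) were lower with 27HC. The 7th was Psmb1 (-0.11), whose call was lost without any 1 of 27HC replicates 2 and 5 or GW3965 replicates 1, 3 and 5. Higher with 27HC were Psma1 (0.11) and Psmc5 (0.09), the latter not called without 27HC replicate 2 or 3 or GW3965 replicate 4. No dose or time was given for either compound.

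The GW3965 combination moved a set of proteasome genes in both directions, and few members were called between it and GW3965 alone. Over Vehicle, 18 members rose and 5 fell (25.2% and 24.4% of all genes), with a median of 0.10, and 14 did not overlap Vehicle (33.3% of all genes). Psmb5 rose by 0.51 ± 0.04, Psmd8 by 0.47 ± 0.03 and Psmd1 by 0.34. Psmd10 fell by 0.46 and was 15.8 ± 1.05 CPM (SD, n = 5) against 21.7 ± 1.23 (SD, n = 6) in Vehicle, the lowest mean of Psmd10 among the 9 groups. The others that fell were Psmc5 (-0.20), Psma6 (-0.19), Psmc3 (-0.12) and Psma1 (-0.10), the last not called without replicate 1 of the combination. Over GW3965 alone, 2 members were higher (7.93% of all genes) and none lower (9.56%). At an unadjusted p under 0.05, edgeR's lower count was 0 as well, and DESeq2 also gave 0. Psmd8 was higher by 0.18 (adjusted p = 4.81e-05). Psmb5 was higher by 0.12 (adjusted p = 0.0445), and this call was lost without any 1 of GW3965 replicates 2 to 5 or combination replicates 2 and 3, and 3 members were higher without combination replicate 5.

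With E2 and with ICI alone fewer proteasome genes were called than with the other treatments, and the same held for all genes. With E2, no member was called higher and 2 were called lower (2.2% and 2.49% of all genes), with a median of -0.04. Those 2 were the ATPases Psmc5 and Psmc3, each at -0.10, with adjusted p of 0.0417 and 0.0482. At an unadjusted p under 0.05, edgeR's test gave 0 members higher and 8 lower, and DESeq2 called 0 higher and 2 lower. The 2 calls rest on single libraries: that of Psmc5 was lost without any 1 of Vehicle replicates 1, 2, 3, 5 and 6 or E2 replicates 1, 2 and 5, and that of Psmc3 without any 1 of Vehicle replicates 1, 3, 4, 5 and 6 or E2 replicates 1, 2, 4 and 5. With ICI, 7 members rose and none fell (13.9% and 12.5% of all genes), and the median was 0.05. The unadjusted counts were 12 higher and 1 lower, and DESeq2 called 7 higher and 0 lower. Psmd8 rose by 0.24 ± 0.03 (adjusted p = 6.06e-08), Psmb5 by 0.23 ± 0.04, the lid subunit Psmd11 by 0.19, Psmb6 by 0.18 and Psmd1 by 0.14. Of the 7, Psmb5 and Psmd8 did not overlap Vehicle (7.46% of all genes called higher without overlap). Psmb7 (0.11) was not called without ICI replicate 3 or 5, and Psmc4 (0.08) was not called without Vehicle replicate 5 or ICI replicate 4 or 5.

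With 27HC present, GSK2033 again raised most proteasome genes. GSK2033 with 27HC had 25 members higher than Vehicle and none lower (24.1% and 26.4% of all genes), with a median of 0.20. Of the 25, 22 did not overlap Vehicle, against 16.1% of all genes called higher without overlap. By edgeR, 26 were higher and 0 lower at an unadjusted p under 0.05, and DESeq2 gave 26 and 0. Psmd8 rose by 0.66 ± 0.03 (1.58-fold), Psmb5 by 0.57 ± 0.04 (1.48-fold), Psmb6 by 0.56 ± 0.04 (1.47-fold) and Psmd14 by 0.44 ± 0.04. Compared with 27HC alone, 27 members were higher and none lower (21.1% and 21.7% of all genes), with a median of 0.17, and 20 did not overlap (14.7% of all genes called higher without overlap). The unadjusted counts were 28 and 0, and DESeq2 gave 27 and 0. Psmd10 rose most, by 0.52 ± 0.05 over 27HC alone, followed by Psmb6 at 0.43 ± 0.04 and the ATPase Psmc6 at 0.37 ± 0.06. Of 13 mitochondrially encoded genes 11 were lower in the same comparison, and their part in it was not tested.

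Few members were called for a dependence of the GSK2033 effect on 27HC. The interaction term on the log2 scale, the effect of both together minus the sum of the single effects, called 1 member above and 2 below 0, against 9.34% and 10.3% of all genes. Psmc6 was at 0.26 ± 0.08 (adjusted p = 0.0185), Psmb5 at -0.17 ± 0.06 (adjusted p = 0.0277) and Psmd12 at -0.15 ± 0.05 (adjusted p = 0.0371), and the median was -0.04. The Psmb5 call was lost without any 1 of Vehicle replicate 2, 27HC replicate 3, GSK2033 replicates 3 and 5 or replicates 2, 3 and 5 of GSK2033 with 27HC. The Psmd12 call was lost without any 1 of Vehicle replicate 1, 27HC replicates 1, 2 and 3, GSK2033 replicates 1, 2, 3 and 5 or any replicate of GSK2033 with 27HC. Without the 9 libraries numbered 3, a choice made after seeing the data, the interaction called 0 members, Psmc6 included. Over all libraries, edgeR had 1 member above and 6 below 0 at an unadjusted p under 0.05. Of those 6, 4 were core genes. DESeq2 called 1 above and 2 below 0.

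ICI with 27HC raised 17 members over Vehicle and lowered 6 (26.6% and 26.4% of all genes), with a median of 0.10, and 18 did not overlap Vehicle (36.4% of all genes). Regulatory genes held most of the higher calls, 13 of 20 against 4 of 14 core genes, with 3 lower in each. Psmd8 rose by 0.88 ± 0.03 (adjusted p = 4.76e-27), or 1.83-fold, the widest change of any member in any treatment. Psmb5 rose by 0.51 ± 0.04, Psmb6 by 0.40 ± 0.04, and Psmd12 and Psmd1 by 0.34 each. Psmd10 fell by 0.32, Psma6 by 0.19, Psmc3 by 0.14, Psmc5 by 0.12, and Psma1 and Psma5 by 0.11 each. Over 27HC alone, 15 were higher and none lower (16.8% and 17.4% of all genes), with a median of 0.07, and 9 did not overlap (10.5% of all genes called higher without overlap). The unadjusted counts by edgeR were 16 and 0, and DESeq2 gave 15 and 0. Psmd8 led again, at 0.56 ± 0.03. It was also the 1 member called in the interaction of ICI with 27HC, at 0.32 ± 0.05 (adjusted p = 7.35e-07), where 7.39% of all genes were called above 0 and 9.97% below. That interaction had 4 members above and 1 below 0 at an unadjusted p under 0.05, and DESeq2 called 1 above and 0 below.

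The catalytic subunits Psmb5, Psmb6 and Psmb7 did not share 1 pattern. Psmb5 (ENSMUSG00000022193, chromosome 14, 54614119 to 54618022, minus strand, GRCm38) stood at 129, 119, 133, 127, 121 and 125 CPM in the 6 Vehicle libraries. It stood at 176, 183, 181, 170.4 and 179.8 CPM with GSK2033, at 173, 165, 166, 154 and 166 with GW3965, and at 196, 178, 183, 193 and 183 with GSK2033 and 27HC. It was also 147, 139.7, 163, 147 and 145 CPM with 27HC, 138, 142, 154, 147 and 158 with ICI, and 127, 125, 133, 134 and 124 with E2. In the 7 treatments other than E2, every library lay above the highest Vehicle library, and E2 overlapped Vehicle. In order of mean level, E2 (128 ± 4.60 CPM, SD, n = 5) was next to Vehicle (126 ± 5.17, n = 6), ICI (148 ± 8.29) and 27HC (148 ± 8.73) came next and overlapped, GW3965 stood at 165 ± 6.65, and GSK2033 (178 ± 4.92), the GW3965 combination (179 ± 12.3), ICI with 27HC (179 ± 7.21) and GSK2033 with 27HC (187 ± 7.44) overlapped one another. GW3965 overlapped ICI, 27HC, GSK2033, the combination and ICI with 27HC. Of the 31-base stretches of Psmb5 transcripts, 71.7% recur in other genes, most of them in Gm3375, a copy counted at a mean of 0.663 estimated counts, so reads placed by chance between copies are a limit on this gene.

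Psmb6 (ENSMUSG00000018286, chromosome 11, 70525367 to 70527858, plus strand) stood higher in the GSK2033 groups than with 27HC alone, with GW3965 or in the GW3965 combination. It was called higher than Vehicle in every treatment but E2. It was 165, 159.9, 178, 163, 169 and 156 CPM in Vehicle, and 229.7, 234, 237, 227 and 239 CPM with GSK2033. With GSK2033 and 27HC it was 241, 238, 252, 243 and 242 CPM, and with ICI and 27HC 211, 216, 235, 214 and 214. The GSK2033 libraries all lay above the highest Vehicle library. The GW3965 libraries, at 163 to 187 CPM, overlapped Vehicle, and so did those of 27HC, at 175 to 193, and of E2, at 155 to 167. Psmb7 (ENSMUSG00000026750, chromosome 2, 38588036 to 38644087, minus strand) was 113, 108, 116, 110.3, 113 and 112 CPM in Vehicle and 137, 144, 142, 137 and 141 with GSK2033, with no overlap. Its fold change was 0.32 ± 0.03 with GSK2033, 0.25 ± 0.03 with GSK2033 and 27HC, 0.14 with ICI and 27HC, 0.13 in the GW3965 combination and 0.12 with GW3965, and it was not called with 27HC (0.04). Psmb7 shares 10.3% of its 31-base stretches with Nek6 on the opposite strand, and the strand setting of the counting was not given in the sources used here, so reads of the 2 genes may not be separated.

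**Figure D3:**
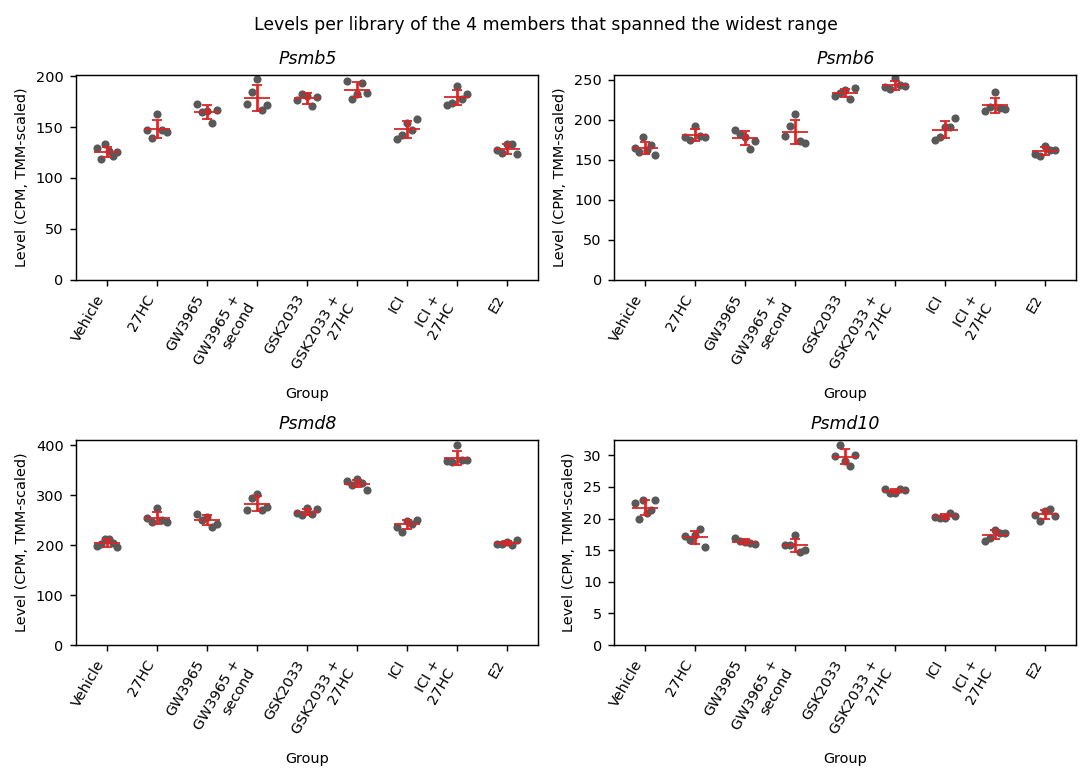
Level in CPM in each library (points) for Psmb5, Psmb6, Psmd8 and Psmd10, with the mean and SD of each of the 9 groups (bars). Psmd8 is highest in ICI with 27HC, and Psmd10 lies above Vehicle in both GSK2033 groups and below it in 27HC, GW3965, the GW3965 combination and ICI with 27HC.

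Among the other core genes, the structural Psmb subunits rose with GSK2033 at Psmb4 (0.33), Psmb2 (0.26), Psmb3 (0.24) and Psmb1 (0.20), and the gate-ring subunits at Psma5 (0.29), Psma4 (0.24), Psma3 (0.24), Psma2 (0.19), Psma6 (0.17) and Psma7 (0.15). Psma6 (ENSMUSG00000021024, chromosome 12, 55384222 to 55418454, plus strand) showed the opposite sign with the LXR agonists. Its level was 188 ± 8.49 CPM in Vehicle (SD, n = 6), 212 ± 8.65 with GSK2033, 162 ± 9.61 with 27HC and 161 ± 7.29 with GW3965 (n = 5 each). With GSK2033 and 27HC together it was 189.7 ± 3.73 CPM, inside the Vehicle range of 174 to 197. The GW3965 libraries, at 153 to 169 CPM, all lay below Vehicle, and those of 27HC, at 155 to 178, overlapped it. Psma7 rose with GW3965 (0.16) and was not called with 27HC (-0.07). Psma3 shares 16.2% of its 31-base stretches with Gm13835, which has a mean of 1269 estimated counts, so the value of Psma3 is uncertain.

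Of the base ATPases, the Psmc genes, 3 of 6 were called with GSK2033, and all 6 had fitted values above 0, from 0.07 to 0.28. Psmc4 (0.28 ± 0.03), Psmc2 (0.23) and Psmc5 (0.16) rose, and Psmc1, Psmc3 and Psmc6 were not called. Psmc5 fell with 27HC (-0.10), GW3965 (-0.19), the GW3965 combination (-0.20) and ICI with 27HC (-0.12). Psmc3 fell with 27HC, the combination and ICI with 27HC (-0.11 to -0.14) and rose in none. Psmc5 and Psmc3 were also called lower with E2, and those calls were lost without single libraries, as given above. Psmc4 had no 31-base stretch in common with another gene. Psmc1 was not called in any of the comparisons against Vehicle, where its fitted log2 values lay between -0.05 and 0.09.

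The lid subunit Psmd8 (ENSMUSG00000030591, chromosome 7, 29174188 to 29180701, minus strand) showed the widest differences in level among the finished particle's subunits. It was 198, 203, 213, 213, 204 and 196 CPM in Vehicle, 254, 246, 275, 251 and 247 with 27HC, and 237, 227, 249, 243 and 251 with ICI. With ICI and 27HC together it was 368, 366, 401, 369.8 and 370.1 CPM, and with GSK2033 and 27HC 329, 321, 332, 324 and 311. Every library of ICI with 27HC lay above every other library of the series in Psmd8, and every library of GSK2033 with 27HC lay above those of the remaining groups. E2 (205 ± 3.61 CPM, SD, n = 5) and Vehicle (204 ± 7.34, n = 6) overlapped, ICI (241 ± 9.84), GW3965 (249 ± 10.1) and 27HC (255 ± 11.8) overlapped one another, and so did GSK2033 (266 ± 5.89) and the GW3965 combination (283 ± 14.6). GSK2033 also overlapped GW3965 and 27HC, and the combination also overlapped 27HC. The other lid genes rose less with ICI and 27HC: Psmd12 by 0.34, Psmd11 by 0.32, Psmd14 by 0.30, Psmd6 by 0.20 and Psmd7 by 0.13. The base scaffold Psmd1 (chromosome 1, 86064387 to 86139151) was 188 ± 4.94 CPM in Vehicle and 238 CPM in GW3965, the combination and ICI with 27HC alike, and rose by less with GSK2033 (0.16).

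The assembly chaperones went separate ways. Psmd10, also called gankyrin (ENSMUSG00000031429, chromosome X, 140948429 to 140956728, minus strand), was 22.5, 20.0, 22.9, 20.8, 21.3 and 22.9 CPM in Vehicle. It was 30.0, 31.6, 29.1, 28.3 and 30.0 CPM with GSK2033, 17.3, 16.6, 17.5, 18.3 and 15.5 with 27HC, and 16.9, 16.4, 16.4, 16.1 and 15.9 with GW3965. With GSK2033 and 27HC together it was 24.6, 24.1, 24.1, 24.6 and 24.5 CPM, and with ICI and 27HC 16.5, 16.9, 18.3, 17.8 and 17.8. None of these 5 groups overlapped Vehicle, those with GSK2033 being above it and the others below. ICI alone (20.3 ± 0.345 CPM) and E2 (20.7 ± 0.759) were not called. Psmd10 had no 31-base stretch in common with another gene. Psmd5 was 47.2 ± 2.75 CPM in Vehicle and rose with GW3965 (62.0 ± 5.20) and GSK2033 (57.0 ± 3.31), and Psmd9 was called in no comparison with Vehicle.

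The core and regulatory particles were compared as the mean log2 CPM of their genes in each library, minus the Vehicle mean. With GSK2033 the core mean was 0.27 ± 0.03 (SD, n = 5) above Vehicle, between 0.21 and 0.29, and the regulatory mean was 0.22 ± 0.04. Vehicle libraries lay between -0.04 and 0.05 for the core. With GSK2033 and 27HC the core mean was 0.20 ± 0.02 and the regulatory mean 0.22 ± 0.02. With ICI and 27HC the core mean was 0.06 ± 0.05 and the regulatory mean 0.16 ± 0.01. Core means of the GSK2033 groups alone did not overlap Vehicle, and regulatory means of those groups, the GW3965 combination and ICI with 27HC did not. The difference between particles, core minus regulatory, was -0.10 ± 0.03 with ICI and 27HC, between -0.11 and -0.04, below all Vehicle libraries, which lay between -0.04 and 0.05; the nearest pair stood at -0.036 and -0.035. It was 0.05 ± 0.02 with GSK2033, -0.05 ± 0.03 with 27HC and -0.03 ± 0.01 with GSK2033 and 27HC, all overlapping Vehicle. Taking the median over members in place of the mean, GSK2033 with 27HC was at -0.08 and no longer overlapped Vehicle. Leaving out the 3 chaperones, it was -0.12 for ICI with 27HC. Members together took 0.426 ± 0.00758% of all counts in Vehicle and 0.502 ± 0.0118% with GSK2033.

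**Figure D4:**
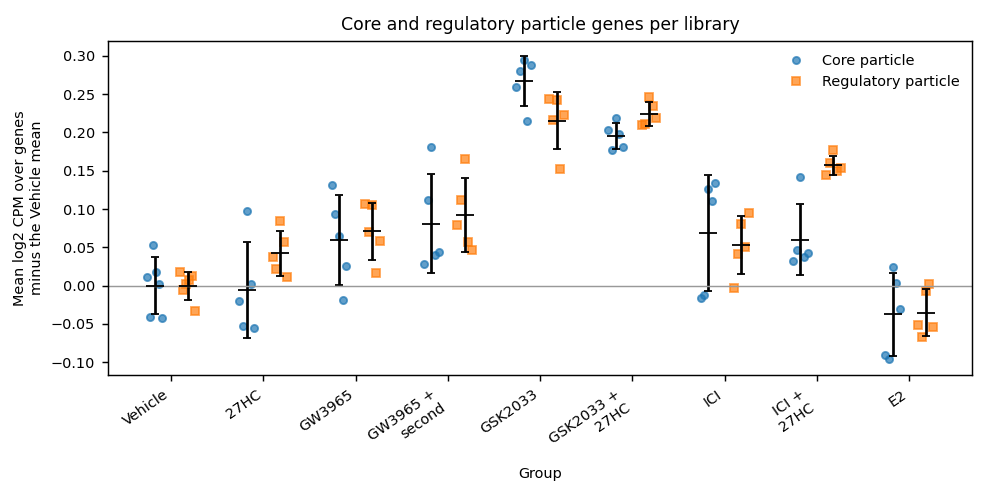
Mean log2 CPM of the 14 core genes and the 20 regulatory genes in each library, minus the Vehicle mean (points), with the mean and SD of each group (bars). Both particles lie above Vehicle in the GSK2033 groups, and in ICI with 27HC the regulatory mean is 0.16 and the core mean 0.06.

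The inducible catalytic subunits, which replace the constitutive ones in the immunoproteasome, had wider changes. Psmb8, Psmb9 and Psmb10 all fell with 27HC, GW3965, the GW3965 combination, ICI with 27HC, GSK2033 with 27HC and E2, and all 3 rose with GSK2033. With ICI none was called by edgeR or DESeq2, and 1 was higher at an unadjusted p under 0.05. Psmb8 was 258 ± 10.8 CPM in Vehicle (SD, n = 6), 148 ± 5.64 under 27HC, 139 ± 9.41 under GW3965, 363 ± 8.61 under GSK2033 alone and 207 ± 5.94 under GSK2033 plus 27HC. Psmb9 fell by 1.05 with 27HC, by 1.19 with GW3965 and by 1.30 with ICI and 27HC on the log2 scale, and rose by 0.48 with GSK2033. In E2 the fall was 0.27 for Psmb8, 0.22 for Psmb9 and 0.19 for Psmb10. The Psmb9 call with E2 was lost without any 1 of Vehicle replicates 1, 3 and 6 or E2 replicates 1, 2 and 5, and the Psmb10 call without E2 replicate 5. Of the PA28 activator subunits, Psme1 fell by 0.65 with 27HC and rose by 0.25 with GSK2033. Psme2 fell by 0.58 and rose by 0.66 in the same comparisons. The activator list, with Psme3 and Psme4 added, holds 4 genes. Of these, 1 rose (by 0.18) and 3 fell with 27HC, against 20.3% and 20.0% of all genes. With GSK2033, 3 of the 4 rose and 0 fell, against 18.4% and 17.9% of all genes. Psmb9 shares 4.79% of its 31-base stretches with Tap1 on the opposite strand, which has a mean of 3472 estimated counts.

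Each constitutive subunit was then set against the inducible subunit that takes its place, as a change in the log2 ratio of their levels from the Vehicle mean. The ratio of Psmb5 to Psmb8 was higher than in Vehicle by 1.04 with 27HC (2.05-fold), 1.28 with GW3965, 1.29 in the GW3965 combination, 1.34 with ICI and 27HC (2.53-fold) and 0.88 with GSK2033 and 27HC, with no overlap with Vehicle. It was also higher by 0.31 with E2 and by 0.15 with ICI, without overlap, and was 0.01 with GSK2033, where the libraries overlapped Vehicle. The ratio of Psmb6 to Psmb9 was higher by 1.19, 1.29, 1.19, 1.70 (3.25-fold) and 1.11 in the same 5 groups, and 0.18 with E2, 0.12 with ICI and 0.02 with GSK2033, these last overlapping Vehicle. The ratio of Psmb7 to Psmb10 was higher by 0.64, 0.86, 0.74, 0.88 and 0.73, by 0.14 with E2, which did not overlap Vehicle, and 0.04 with ICI and -0.06 with GSK2033, which did. In these 5 groups the ratio did not overlap Vehicle for any of the 3 pairs. With GSK2033 alone, constitutive and inducible catalytic genes rose by like amounts, and the ratios of all 3 pairs overlapped Vehicle.

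**Figure D5:**
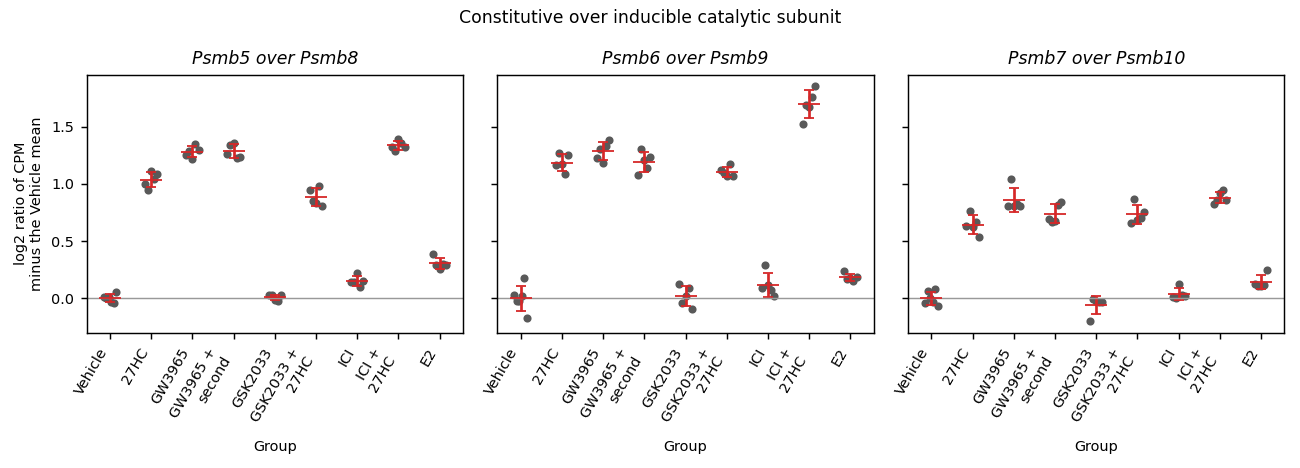
Log2 ratio of each constitutive catalytic gene to the inducible gene that replaces it, minus the Vehicle mean, in each library (points) with the mean and SD of each group (bars). GSK2033 alone lies at Vehicle, at 0.01, 0.02 and -0.06, and all groups given 27HC or GW3965 lie above it.

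The genes around the proteasome were described from lists of its regulators. Nfe2l1, which encodes NRF1, was 262 ± 24.5 CPM in Vehicle (SD, n = 6), 341 ± 18.7 with GSK2033, 393 ± 8.94 with GSK2033 and 27HC, 338 with ICI and 27HC, 227 ± 16.4 with 27HC and 233 ± 17.7 with GW3965 (n = 5 each). It rose by 0.38 ± 0.06 with GSK2033 (adjusted p = 4.13e-07), by 0.58 ± 0.06 with GSK2033 and 27HC and by 0.37 ± 0.06 with ICI and 27HC, and fell by 0.20 with 27HC. With GW3965 Nfe2l1 was at -0.17, a call that was lost without Vehicle replicate 1 or 2. Over 27HC alone it was higher by 0.79 ± 0.06 with GSK2033 and by 0.57 ± 0.06 with ICI. Its interactions were 0.41 for GSK2033 with 27HC and 0.53 for ICI with 27HC.

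The shares of all genes called higher and lower over Vehicle, against which these lists are read, were 18.4% and 17.9% with GSK2033, 24.1% and 26.4% with GSK2033 and 27HC, 26.6% and 26.4% with ICI and 27HC, 20.3% and 20.0% with 27HC, 23.1% and 21.1% with GW3965, 25.2% and 24.4% in the GW3965 combination, 13.9% and 12.5% with ICI and 2.2% and 2.49% with E2. The 7 genes of the NRF1 axis also include the segregase Vcp and the ubiquitin ligase Syvn1, which move NRF1 out of the endoplasmic reticulum. Of these 7, 5 rose and none fell with GSK2033, 5 rose and 1 fell with GSK2033 and 27HC, 6 rose and 1 fell with ICI and 27HC, 5 rose and 2 fell with 27HC, 4 rose and 2 fell with GW3965, 5 rose and 1 fell in the combination, 2 rose and 1 fell with ICI, and 0 were called with E2. Syvn1 rose by 0.25 with GSK2033 and by 0.34 with ICI and 27HC, and Vcp rose by 0.22 with GSK2033 and 27HC and by 0.22 with GW3965. Of 7 VCP cofactors tested, 5 rose with GSK2033, 7 with GSK2033 and 27HC, 5 with ICI and 27HC, 4 in the combination, 3 with GW3965, 1 with 27HC and 0 with ICI and E2, and edgeR called none lower in these 8 comparisons. Nploc4 rose by 0.20 with GSK2033 and Faf1 by 0.52 with GSK2033 and 27HC. Of 10 proteasome-bound receptors and regulators, 6 rose and 1 fell with 27HC. In the same list 6 rose with GSK2033, 7 with ICI and 27HC, 5 each with GSK2033 and 27HC, with GW3965, with ICI and in the combination, and 0 with E2, and none fell in those 7. Txnl1, a thioredoxin-like protein of the proteasome cap, rose by 0.33 with GSK2033, by 0.52 with GSK2033 and 27HC and by 0.37 with GW3965, and the ubiquitin receptor Adrm1 by 0.28 with GSK2033. Zfand5, a ubiquitin-binding activator of the proteasome, rose by 0.67 with ICI and 27HC. With GSK2033, the lower counts of these 3 lists were 0 also by DESeq2 and at an unadjusted p under 0.05. With E2, the unadjusted counts were 1 higher and 1 lower for the NRF1 axis, 0 and 1 for the VCP cofactors and 1 and 0 for the regulators, of which DESeq2 called 1 VCP cofactor lower. With ICI, 1 VCP cofactor was higher at an unadjusted p under 0.05 and 0 by DESeq2.

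The NRF2 axis list holds the regulators Nfe2l2 and Keap1 and antioxidant genes that share the response element. Genes of this list were called in every treatment, and mostly higher. Of 9 tested, 8 rose and 0 fell with GSK2033, 8 rose and 1 fell with GSK2033 and 27HC, and 7 rose and 2 fell with ICI and 27HC. With GW3965 and in the combination 6 rose and 3 fell, with ICI 6 rose and 2 fell, with E2 6 rose and 1 fell, and with 27HC 4 rose and 1 fell. The 0 with GSK2033 was 0 also by DESeq2 and at an unadjusted p under 0.05 by edgeR. Srxn1, a sulfiredoxin, rose by 0.51 with GSK2033, by 1.15 with GW3965, by 0.47 with 27HC, by 1.34 with ICI and 27HC and by 1.18 with GSK2033 and 27HC. Slc7a11, the cystine transporter, rose by 1.58 with GSK2033 and by 2.83 with GSK2033 and 27HC. Nfe2l2, which encodes NRF2, fell by 0.35 with GW3965, rose by 0.15 with GSK2033 and 27HC, and was not called with GSK2033 alone (0.04).

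Heat shock and ubiquitin genes were called in both directions with GSK2033. Of 10 heat shock chaperones, 1 rose and 2 fell with GSK2033, near the 18.4% and 17.9% of all genes, while 8 rose and none fell with GW3965 (23.1% and 21.1% of all genes), where the lower count was 0 also by DESeq2 and at an unadjusted p under 0.05. Hspa1a rose by 1.20 with GSK2033, and Hspa8 fell by 0.06. Of the 4 ubiquitin genes, 1 rose and 2 fell with GSK2033, with Ubb at 0.10, and Ubb fell by 0.25 with 27HC and by 0.42 with GW3965. Of 7 genes of ubiquitin activation and shuttling, 2 rose and 1 fell with GSK2033, the shuttle factor Rad23b rising by 0.22 and Ubqln2 falling by 0.16. Of 5 core assembly factors, 2 rose with GSK2033 and none fell. The core assembly factor Psmg2 rose by 0.24 with GSK2033, by 0.28 with GW3965 and by 0.35 with ICI and 27HC, while Pomp, the maturation factor of the core, fell by 0.23 with ICI and 27HC. Of 13 mitochondrially encoded genes, none rose and 9 fell with GSK2033, with a median of -0.28, and 6 fell with GSK2033 and 27HC. Over 27HC alone, GSK2033 with 27HC had 11 of 13 lower, with a median of -0.53. Against Vehicle, 9 rose with 27HC, 11 with GW3965, 8 in the combination, 9 with ICI and 6 with E2, and 5 rose and 1 fell with ICI and 27HC. The part of the mitochondrial genes in the proteasome results was not tested.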

How the data were processed

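RNA of 46 libraries was sequenced as 100-nt single reads after polyA selection, per the labels' protocols. The authors deposited estimated counts per gene, made with kallisto 0.44.0 on GRCm38 per the submitters' processing notes. The strand setting and any length correction are not given in the sources used here. Estimated counts were rounded, which moved no library total by more than 133. Gene names came from GENCODE M21, and genes without one held 0.483% of counts. The 46 libraries were fitted together in edgeR 4.0.16 (R 4.3.3) with trimmed-mean normalization, the filterByExpr filter and the robust quasi-likelihood test, which left 13838 genes and 37 residual degrees of freedom. The adjusted p threshold was 0.05. CPM values carry no length correction, so levels are compared within a gene. Replicates differed by more than counting noise, with a chi-square per degree of freedom of 3.91 to 12.3 over 95 pairs. Alternatives were DESeq2 1.42.0, other scalings, no filter, only the groups compared, a replicate block and leaving out libraries. On counts simulated for 27HC against Vehicle with 12101 genes, the fit recovered 8% of genes changed 1.1-fold, 88% of those changed 1.25-fold and all changed 1.5-fold. It made 10 false calls. The simulation changed 50 well-expressed genes at each fold and gave all genes 1 dispersion. In the real comparison 20.3% of genes were called higher and 20.0% lower, so these rates need not hold for it. Named genes are members by role, those with the widest span, and the genes with the smallest p in each list. The members and lists were chosen with earlier results of these data known.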

Additional observations from a re-analysis of the deposited data

Results flagged for a closer look

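In 9 of 99 sets of 5 or 6 libraries examined, 1 library stood apart from the rest of its group. The sets share libraries and members, so this count cannot be set against a chance rate. The highest library of Psmb6 stood apart with 27HC, at 193 CPM, and with ICI and 27HC, at 235 CPM. The highest library of Psmd8 in ICI with 27HC was at 401 CPM. Psmb8 had 1 library at 158 CPM in the GW3965 combination, and Psmb10 had 1 at 157 CPM with GSK2033. The core mean in ICI with 27HC had 1 library at 0.14 above the Vehicle mean (log2). The core minus regulatory difference had 1 high library at 0.0134 with 27HC, 1 low library at 0.0155 with GSK2033 and 1 high library at -0.0359 with ICI and 27HC. Each of these was replicate 3 of its group, except that both GSK2033 values were of replicate 1.

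The effect of GSK2033 differed with and without 27HC, by the interaction term of the fit, for Psmb5 (-0.17), Psmc6 (0.26), Psmd12 (-0.15), Psmb10 (-0.26), Nfe2l1 (0.41) and Nfe2l2 (0.15). The calls of Psmb5 and Psmd12 each depended on single libraries, which are named with those values above. The effect of ICI differed with and without 27HC for Psmd8 (0.32), Psmb9 (-0.31), Psmb10 (-0.21), Psme1 (-0.27), Nfe2l1 (0.53) and Nfe2l2 (0.32). Of these, Psmb9 was not called without 27HC replicate 4, ICI replicate 5 or replicate 5 of ICI with 27HC. Psmb10 was not called without any 1 of Vehicle replicates 2 and 5, 27HC replicates 3 and 5, ICI replicates 2, 4 and 5 or replicates 1 and 4 of ICI with 27HC.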

How the results depend on the processing

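Leaving out 1 library at a time, members called higher over Vehicle numbered 29 to 31 with GSK2033 and 23 to 26 with GSK2033 and 27HC. With E2, 1 member was lower in edgeR with RLE scaling, the kind of size factor that DESeq2 uses. The count was 0 with upper-quartile scaling, with no filter and on the groups alone, and 0 to 2 without 1 library. With ICI, 1 was lower on total counts, and 0 to 1 without 1 library (1 without Vehicle replicate 2). On total counts the median change of GSK2033 with 27HC was 0.26 over Vehicle and 0.23 over 27HC, and the median interaction of GSK2033 with 27HC was 0.0044. For 27HC over GW3965, 1 member was higher on the groups alone, and 1 to 2 without 1 library. For the GW3965 combination over GW3965, 1 was higher in edgeR with RLE scaling, with no filter and on the groups alone. The count was 4 on total counts, and 1 to 3 without 1 library. In the interaction of GSK2033 with 27HC, 0 members were below 0 on total counts and with no filter, and 0 to 3 without 1 library. In that of ICI with 27HC, 2 were above 0 on total counts, and 1 to 2 without 1 library (2 without replicate 4 of ICI with 27HC). By the median over members, core minus regulatory with GSK2033 and 27HC was -0.0842. The cause was not tested in any of these. An alternative chosen after seeing the data left out the 9 libraries numbered 3. Then 1 member was lower with E2, 0 were higher with 27HC than with GW3965, 1 was higher in the combination than with GW3965, and the interaction of GSK2033 with 27HC held 0 above and 0 below. Uncalled values of Psmb7 changed sign: for the combination over GW3965 it ran from -0.0157 (without combination replicate 3) to 0.0316 (without GW3965 replicate 1) and was -0.0148 without the libraries numbered 3, and in the interaction of ICI with 27HC it was 0.0217 on total counts and ran from -0.0424 (without ICI replicate 1) to 0.0143 (without replicate 1 of ICI with 27HC) as libraries were left out. The labels share replicate numbers between groups, but say nothing of what a number marks. Over all genes the correlation of deviations between same-numbered libraries was at most 0.0998 for a pair. Its average was lowest for number 2 (0.0021) and highest for number 3 (0.023). Pairs with different numbers from different groups averaged -0.0028, with a maximum of 0.105. For 16 of 46 libraries the best match in another group had the same number, and no chance rate was computed for this count. Libraries numbered 3 lay above their group's core and regulatory means in all 9 groups. Whether shared numbers carry structure was not tested. With the replicate block 31 members were higher with GSK2033, 24 with GSK2033 and 27HC, 9 with 27HC and 17 with GW3965. No count moved by over 1.5 times with this block. Shares of all genes under these other settings are not given here, so the counts describe the members only. Counting noise is small at 19354093 or more counts a library.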

Other observations

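Libraries numbered 3 had the highest core mean of their group in 7 of 9 groups and the highest regulatory mean in 4 of 9. Their core mean deviated from that of their group by 0.06 on average on the log2 scale, between 0.01 and 0.10, and their regulatory mean by 0.03. Without these 9 libraries, an alternative chosen after seeing the data, GSK2033 had 30 members higher than Vehicle and 0 lower. GSK2033 with 27HC then had 24 higher and 0 lower, and ICI with 27HC had 15 and 7. GW3965 had 16 and 5, and 27HC had 8 and 7. Shares of all genes in this refit are not given here, so these counts describe the members only.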
